A study of Mus musculus with 6 samples.

Results

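Of the 10 Bcl2 family genes listed here, Bcl2 and Bcl2l1 had probes that passed the test in the fit without a replicate block. These 2 survival genes moved in opposite directions between double-positive and CD8 single-positive thymocytes, Bcl2 on 3 of 5 probes and Bcl2l1 on its only tested probe of 4. No other listed gene with a tested probe passed in that fit. Of the tested probes of the listed genes, 18.2% were called between these 2 stages, near the 16.8% of all tested probes. Bcl2l2 and Bnip2, family members outside this list, were also called and are given further below. With the replicate number of the arrays as a block, probes of Mcl1, Bid and Bcl2l11 also passed, as given with each gene. The Bcl2 family genes described here are Bcl2, Bcl2l1 and Mcl1, which keep cells alive, Bax and Bak1, which form pores in the mitochondrial membrane, and Bid, Bad, Bcl2l11, Bbc3 and Pmaip1, which trigger death through a short BH3 domain. All probes were taken whose platform annotation gives a single symbol that is among these 10 genes. This gave 29 probes of 9 genes, out of 34945 single-symbol probes of 18193 genes in the table, and Bax was not analysed here. Of the 29 probes, 22 probes of 8 genes had a mean log2 value at or above the median of all single-symbol probes (an intensity of 29.9) and were tested. The other 7 probes, among them the only probe of Pmaip1, lay under this limit and are given as values. The tested probe nearest to the limit was 1443837_x_at of Bcl2, with a mean intensity of 40.9, and the nearest below it were 1420887_a_at of Bcl2l1 (26.2) and that of Pmaip1 (25.1).

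Proteins of this family decide whether cytochrome c leaves the mitochondria. BCL2, BCL-XL (from Bcl2l1) and MCL1 hold the pore formers BAX and BAK in check, and BH3-only proteins release that hold when a cell is starved of signals, damaged, or stimulated too strongly through its T cell receptor. In the thymus, BCL-XL is known for the survival of double-positive cells, BCL2 for that of single-positive cells, MCL1 for survival at several stages, and BIM (from Bcl2l11) for the death of cells that recognise self too strongly.

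Messenger RNA was measured on 6 microarrays, 2 for each of 3 populations sorted by surface CD4 and CD8: double-positive (DP) thymocytes, CD4intCD8+ thymocytes, with intermediate CD4, and CD8 single-positive (CD8SP) thymocytes. All came from mice aged 5 to 6 weeks that are homozygous for the N15 T cell receptor transgene, lack Rag2 (RAG-2-/-) and have the H-2b haplotype, with 6 age- and sex-matched mice named for the sorts. Every thymocyte of these mice can therefore make only the transgenic receptor, no untransgenic or unsorted control entered the comparisons, and the labels do not say whether mice were pooled for an array. They do not tie the arrays to separate animals beyond numbering them 1 and 2 in each population, so p-values reflect only how much these arrays vary, which may be technical.

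Median intensity lay between 24.9 and 25.7 on the 6 arrays, 2.78% to 4.33% of all intensities on an array were negative, and the 2 arrays of a stage correlated at 0.973 to 0.981 over the tested probes. The summed intensity of the T lineage genes Cd3d, Cd3e and Thy1 was 9199 to 10224 in DP, 6879 to 7402 in CD4intCD8+ and 6613 to 6729 in CD8SP cells, and that of the CD8 lineage genes Cd8a, Cd8b1 and Runx3 was 6982 to 7607, 3519 to 5116 and 4047 to 4605 in the same order. Both sums were thus highest in DP cells, without overlap. The CD8 lineage sum followed its bright genes Cd8a and Cd8b1, while Runx3 went the other way. Runx3 had 228 and 227 in DP cells, 354 and 248 in CD4intCD8+ cells and 363 and 295 in CD8SP cells. Rag1, expressed while receptor genes are rearranged, had 1046 and 1054 in DP cells, 101 and 134 in CD4intCD8+ cells and 57.8 and 97.9 in CD8SP cells. Cd4 had 351 and 515 in DP cells, -33.0 and 11.8 in CD4intCD8+ cells and -65.8 and -68.6 in CD8SP cells. Ptcra, the pre-T cell receptor chain, had 41.4 and 49.9 in DP cells, 42.9 and 120 in CD4intCD8+ cells and 37.9 and 111 in CD8SP cells, with replicate 2 of both later stages above both DP arrays. Messenger RNA of Cd4 was near 0 in the population sorted as intermediate for surface CD4. Lck was not analysed here. Summed markers of other cell types over the 6 arrays were 72.8 to 206 for B cells (3 genes), 153 to 215 for myeloid cells (5), 58.7 to 80.7 for dendritic cells (3), 127 to 147 for thymic epithelium (5), 42.8 to 91.5 for erythroid cells (2) and 21.2 to 51.6 for natural killer cells (2). In CD8SP against DP, 3 of these sums were higher without overlap: 194 and 206 against 134 and 177 for B cells, 189 and 201 against 153 and 181 for myeloid cells, and 33.3 and 51.6 against 23.9 and 29.1 for natural killer cells. The dendritic sum (67.1 and 71.1 in CD8SP, against 79.3 and 80.7 in DP) and the epithelial sum (127 and 131 in CD8SP, against 135 and 143 in DP) were lower without overlap, and the erythroid sums overlapped. Of the B cell genes, Cd79a was at most 15.8, Cd79b at most 68.5 and Ms4a1 at most 127. The 2 natural killer and 3 dendritic genes all lay under the filter. Of the natural killer genes, Ncr1 had 25.5 and 22.9 in DP and 51.6 and 23.9 in CD8SP cells, with overlap. Klra8 was at most 9.43. The part of these cells in the results was not tested.

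The windows at the annotated starts of the 2 genes whose messenger RNA moved in opposite directions are shown first, because transcripts of these genes start there in the RefSeq annotation. Each holds 300 bases, from 250 before to 50 after the start, on build GRCm38.p6, and is written 5′ to 3′ along the gene. Capitals mark matches to any of 4 motifs searched on both strands. The motifs were the cyclic AMP response half-site TGACG, the forkhead motif GTAAACA, the Ets motif GGAAGT and the STAT motif TTCNNNGAA.
Bcl2, chr1:106714241-106714540, minus strand: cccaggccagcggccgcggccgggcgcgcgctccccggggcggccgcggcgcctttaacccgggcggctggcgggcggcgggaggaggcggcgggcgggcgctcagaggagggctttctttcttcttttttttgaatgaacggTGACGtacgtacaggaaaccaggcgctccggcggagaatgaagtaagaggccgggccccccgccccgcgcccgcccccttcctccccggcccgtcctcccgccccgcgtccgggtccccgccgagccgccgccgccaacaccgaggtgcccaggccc
Bcl2l1, chr2:152831679-152831978, minus strand: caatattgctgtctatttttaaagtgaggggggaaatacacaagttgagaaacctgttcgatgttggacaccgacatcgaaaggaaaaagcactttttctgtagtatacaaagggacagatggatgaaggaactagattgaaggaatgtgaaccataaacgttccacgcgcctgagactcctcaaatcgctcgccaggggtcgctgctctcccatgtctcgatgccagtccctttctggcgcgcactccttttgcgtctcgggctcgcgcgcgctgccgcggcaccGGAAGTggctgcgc

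The Bcl2 window is 76.0% G and C, against a median of 52.7% over all 32851 windows of this length in the RefSeq table, and its only match is TGACG at position 144, counted from 1 at the 5′ end. TGACG occurs in 20.8% of all windows on either strand. The Bcl2l1 window is 52.3% G and C, and its only match is GGAAGT at position 287, a motif in 23.8% of all windows. Bcl2l1 has 2 further annotated starts, and of their windows that at chr2:152830668-152830967 holds GGAAGT at position 129, while that at chr2:152828440-152828739 has no match. The forkhead and STAT motifs, in 3.65% and 8.30% of all windows, have no match in the 4 windows of Bcl2 and Bcl2l1. A match is a description of letters, and which start the thymocytes used was not measured.

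Bcl2 had higher messenger RNA in CD8SP than in DP thymocytes in 3 of its 5 probes. BCL2, the founding member of the family, binds BH3-only proteins and the pore formers at the mitochondrial membrane. Its brightest probe, 1457687_at, had intensities of 361 and 313 in DP cells, 586 and 476 in CD4intCD8+ cells and 740.3 and 737 in CD8SP thymocytes. The stages followed each other without overlap on this probe, with both CD8SP arrays above both CD4intCD8+ arrays and these above both DP arrays. Means were 337 ± 33.7 for DP, 531 ± 77.8 for CD4intCD8+ and 739 ± 2.22 for CD8SP thymocytes (SD, n = 2 each). The change from DP to CD8SP was 1.12 ± 0.14 on the log2 scale (SE; 2.18-fold) and passed limma's test with an adjusted p of 0.0012. Here and below, changes are differences of log2(intensity + 5.84), adjusted p-values are limma's after Benjamini-Hochberg adjustment over the 17473 probes tested in the table, and 0.05 is the threshold. Within replicate 1 the change was 1.02 and within replicate 2 it was 1.22.

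The second Bcl2 probe, 1437122_at, had 142 and 100.1 in DP cells, 221 and 153 in CD4intCD8+ cells and 274 and 275 in CD8SP thymocytes. Again no array of one stage reached into the next. CD8SP exceeded DP by 1.16 ± 0.21 in log2 (adjusted p = 0.00718, limma), a call that was lost without DP replicate 2 (0.93). Probe 1440770_at had 54.3 and 46.3 in DP cells, 68.8 and 47.9 in CD4intCD8+ cells and 84.0 and 84.5 in CD8SP thymocytes, with 1 CD4intCD8+ array inside the DP range. Its CD8SP level was higher than that of DP by 0.69 ± 0.20 (adjusted p = 0.0468, limma), a call that ended when any single DP or CD8SP array was left out (adjusted p 0.113 to 0.206). Probe 1422938_at had 62.2 and 71.9 in DP cells, 76.8 and 62.6 in CD4intCD8+ cells and 87.3 and 102 in CD8SP thymocytes. Probe 1443837_x_at had 33.6 on both arrays of DP cells, 36.4 and 37.4 in CD4intCD8+ cells and 44.6 and 59.8 in CD8SP thymocytes. Both had their 2 highest values in CD8SP, but the differences from DP, of 0.46 ± 0.18 and 0.55 ± 0.21, did not pass limma's test (adjusted p 0.11 and 0.105). Over the 6 arrays, which share stage and replicate number, the log2 values of the 10 pairs of Bcl2 probes correlated at 0.761 to 0.981, as a description.

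Between the single steps, Bcl2 was called once. In CD4intCD8+ against DP, probe 1457687_at rose by 0.64 ± 0.14 (adjusted p = 0.0258, limma). The call was lost without DP replicate 1 (0.74, adjusted p = 0.081), without DP replicate 2 (0.54, adjusted p = 0.137), and without CD4intCD8+ replicate 1 (0.49, adjusted p = 0.0975). Probe 1437122_at differed by 0.60 ± 0.21 (adjusted p = 0.11), and with the replicate number as a block it passed (adjusted p = 0.0201). Leaving out 1 array gave 0.34 to 0.86 for it, with no call. The other 3 probes differed by 0.05 to 0.18, with adjusted p-values of 0.612 to 0.888 in limma. In CD8SP against CD4intCD8+, all 5 Bcl2 probes had both CD8SP arrays above both CD4intCD8+ arrays, with differences of 0.41 to 0.56. None passed limma's test (adjusted p 0.33 to 0.633). For probe 1457687_at the difference was 0.48 ± 0.14, with a 95% interval of 0.16 to 0.80, so the missed threshold does not show that the levels were equal.

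**Figure D1:**
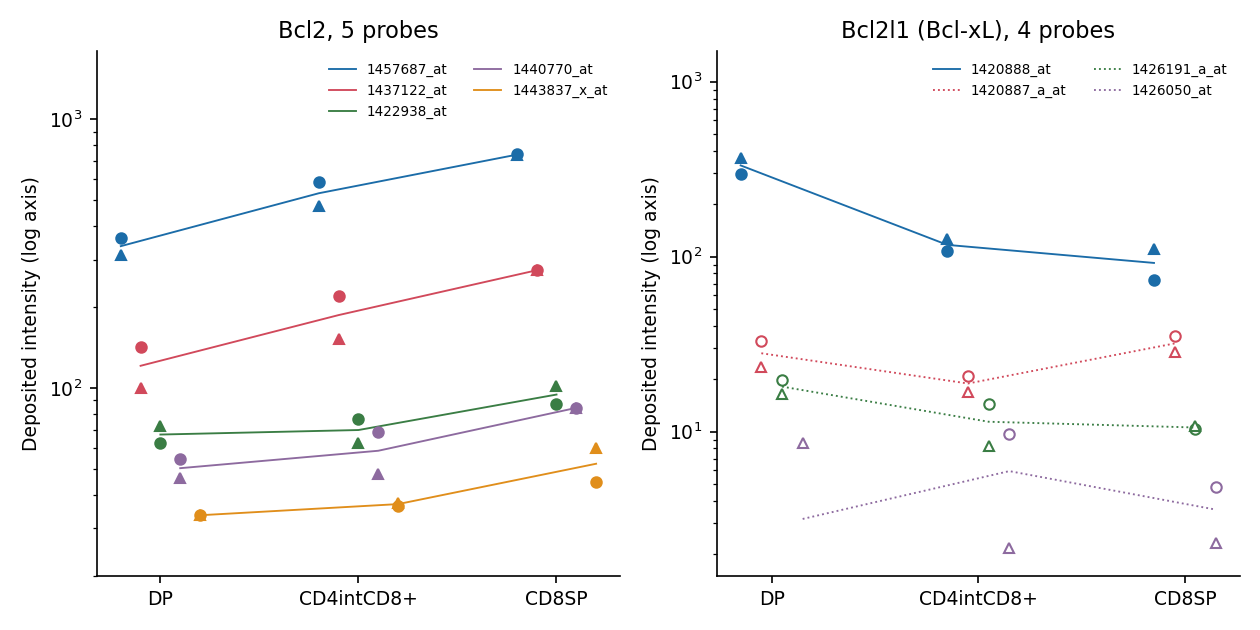
Intensity (log scale) of each Bcl2 and Bcl2l1 probe on each array, by stage from DP to CD8SP; circles are replicate 1, triangles replicate 2, lines join stage means, and open symbols with dotted lines are probes under the filter. Bcl2 probe 1457687_at lies at 740.3 and 737 in CD8SP against 361 and 313 in DP, and Bcl2l1 probe 1420888_at at 73.1 and 111 in CD8SP against 297 and 366 in DP; 1 value below 0, of probe 1426050_at, is not drawn.

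Bcl2l1 had lower messenger RNA in both later stages than in DP thymocytes on its only tested probe. BCL-XL, its long product, is the survival protein on which DP cells are known to depend, and a short splice form, BCL-XS, is known to promote death. Probe 1420888_at had 297 and 366 in DP cells, 107 and 126 in CD4intCD8+ cells and 73.1 and 111 in CD8SP thymocytes. Both DP arrays lay far above the other 4 arrays, while the CD4intCD8+ and CD8SP arrays overlapped. Bcl2l1 fell by 1.46 ± 0.21 on the log2 scale in CD4intCD8+ against DP (SE; 0.363 of the DP level; adjusted p = 0.0068, limma). In CD8SP against DP it fell by 1.81 ± 0.21 (0.286 of the DP level; adjusted p = 0.000839, limma). Stage means were 332 ± 48.9 for DP, 117 ± 13.2 for CD4intCD8+ and 91.9 ± 26.6 for CD8SP thymocytes (SD, n = 2 each). In CD8SP against CD4intCD8+ the change was -0.35 ± 0.21 (adjusted p = 0.721, limma), with a 95% interval of -0.82 to 0.13. The first of these calls was lost without DP replicate 2 (-1.31, adjusted p = 0.0691), and the CD8SP call held without each array in turn (-2.09 to -1.53).

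The other 3 Bcl2l1 probes were dim. Probe 1420887_a_at had 32.8 and 23.2 in DP cells, 20.9 and 16.7 in CD4intCD8+ cells and 35.2 and 28.5 in CD8SP thymocytes, and 1426191_a_at had 19.7 and 16.4, 14.4 and 8.31, and 10.4 and 10.7 in the same order. Probe 1426050_at lay between -2.32 and 9.72 on all arrays. On 1420887_a_at the CD8SP arrays overlapped those of DP, and in the fit without the filter its change in CD8SP against DP was 0.16 ± 0.27 (adjusted p = 0.807, limma), unlike that of 1420888_at. On 1426191_a_at both CD8SP arrays were below both DP arrays, with a change of -0.54 ± 0.33 that did not pass (adjusted p = 0.419, limma). The annotation gives these probes the same symbol, and which transcripts each one detects was not analysed here.

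Mcl1, whose short-lived protein protects thymocytes at several stages, was bright on 6 probes and was called in no comparison by the fit without a block. Its probe 1437527_x_at had 1571 and 1546 in DP cells, 1438 and 1267 in CD4intCD8+ cells and 1513 and 1347 in CD8SP thymocytes. Probe 1448503_at had 1608 and 1318 in DP cells, 1308 and 1026 in CD4intCD8+ cells and 1319 and 924 in CD8SP thymocytes. Probe 1416881_at had 429.5 and 355 in DP cells, 310.4 and 225 in CD4intCD8+ cells and 356 and 237 in CD8SP thymocytes. On all 6 probes both CD4intCD8+ arrays lay below both DP arrays, and replicate 2 lay below replicate 1 in CD4intCD8+ and in CD8SP thymocytes. The 3 probes not listed, 1456243_x_at, 1416880_at and 1456381_x_at, lay between 755 and 1457. The 6 changes in CD4intCD8+ against DP ran from -0.55 to -0.17, with adjusted p-values of 0.15 to 0.362 in limma. Those in CD8SP against DP ran from -0.42 to -0.10 (adjusted p 0.179 to 0.594). In CD8SP against DP, leaving out 1 array gave -0.65 to -0.14 for 1448503_at, a call without CD8SP replicate 1 (-0.65, adjusted p = 0.0465, limma), and -0.71 to -0.13 for 1416881_at, at its lowest without that array and at its highest without CD8SP replicate 2. In CD4intCD8+ against DP the ranges were -0.50 to -0.15 and -0.78 to -0.33, with no call. Changes in CD8SP against CD4intCD8+ ran from -0.07 to 0.13 (adjusted p 0.899 to 0.997). With the replicate number as a block, 1448503_at and 1416881_at passed as lower in CD4intCD8+ than in DP (adjusted p 0.0234 and 0.00986) and lower in CD8SP than in DP (0.00718 and 0.0264). The ratio of the 3′ to the 5′ actin control probe, a measure of RNA integrity, was 1.98 and 2.14 for DP, 2.37 and 3.47 for CD4intCD8+, and 2.28 and 2.62 for CD8SP. With that ratio as a covariate the change of 1448503_at in CD4intCD8+ against DP was 0.11 and that of 1416881_at was -0.03.

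Bak1 and the BH3-only genes gave 10 tested probes, and limma called none of them in any comparison without a replicate block. BAK, a pore former held by MCL1 and BCL-XL, was measured by Bak1 probe 1418991_at, with 89.1 and 94.4 in DP cells, 86.7 and 85.3 in CD4intCD8+ cells and 83.8 and 97.4 in CD8SP thymocytes. The CD8SP arrays enclosed the DP range, the change in CD8SP against DP was -0.02 ± 0.15, and its 95% interval ran from -0.37 to 0.33. The second Bak1 probe, 1425716_s_at, was under the filter at 8.68 to 30.5.

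Bcl2l11 encodes BIM, which binds all survival members and is needed for the deletion of self-reactive thymocytes. Its brightest probe, 1435448_at, had 248 and 215 in DP cells, 380.0 and 300.0 in CD4intCD8+ cells and 266 and 262 in CD8SP thymocytes. Both CD4intCD8+ arrays were above the other 4. The excess in CD4intCD8+ over DP was 0.54 ± 0.16 (adjusted p = 0.0644, limma), and it passed with the replicate number as a block (adjusted p = 0.0126). CD8SP was 0.35 ± 0.16 below CD4intCD8+ on the log2 scale of this probe (change -0.35, adjusted p = 0.604), and the middle stage exceeded the mean of DP and CD8SP by 0.44 ± 0.14 (adjusted p = 0.363). Over the 4 tested Bcl2l11 probes, CD4intCD8+ against DP gave 0.09 to 0.54 and CD8SP against CD4intCD8+ gave -0.56 to -0.31, with the same signs on every probe. Probe 1456006_at had 90.9 and 77.3 in DP cells, 107 and 91.1 in CD4intCD8+ cells and 74.7 and 82.6 in CD8SP thymocytes. Probe 1456005_a_at had 191 and 146 in DP cells, 231 and 137 in CD4intCD8+ cells and 156 and 91.3 in CD8SP thymocytes, and 1435449_at lay between 43.4 and 86.1 on all arrays. On 1456006_at both CD4intCD8+ arrays lay above all others, while on 1456005_a_at the stages overlapped. In CD8SP against DP, 1456005_a_at passed as lower with the replicate number as a block (adjusted p = 0.0359), against a change of -0.46 ± 0.29 without it (adjusted p = 0.324, limma) and -0.83 to -0.09 when 1 array was left out, with no call. Probe 1426334_a_at was under the filter at 13.2 to 25.3, with its 2 highest values in CD4intCD8+ thymocytes. The 6 pairs of tested Bcl2l11 probes correlated at 0.424 to 0.838 over the 6 arrays, a wider spread than that of the Bcl2 probes.

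The 2 tested Bid probes had changes of opposite sign in CD4intCD8+ against DP, and neither was called without a replicate block. In CD8SP against DP, the change of 1448560_at was smaller than its standard error, at -0.07 ± 0.43 (adjusted p = 0.935, limma). BID is cut by caspase-8 and carries the death receptor signal to mitochondria. Probe 1417045_at had 114 and 131 in DP cells, 138 and 251 in CD4intCD8+ cells and 164 and 274 in CD8SP thymocytes. Both DP arrays were lowest, and replicate 2 was well above replicate 1 in both later stages. The change in CD8SP against DP was 0.77 ± 0.30 (adjusted p = 0.113, limma). It was 0.41 without CD8SP replicate 2 (adjusted p = 0.486) and 1.13 without CD8SP replicate 1 (adjusted p = 0.0463), and it also passed without either CD4intCD8+ array (adjusted p 0.0396 and 0.0415). With the replicate number as a block it passed in CD8SP against DP (adjusted p = 0.0064) and in CD4intCD8+ against DP (adjusted p = 0.0300). In CD4intCD8+ against DP the change was 0.58 ± 0.30 (adjusted p = 0.245), which became 0.17 without CD4intCD8+ replicate 2 and 1.00 without CD4intCD8+ replicate 1 (adjusted p 0.828 and 0.0459). Probe 1448560_at had 56.0 and 66.3 in DP cells, 56.9 and 14.5 in CD4intCD8+ cells and 56.4 and 59.4 in CD8SP thymocytes. It was low on CD4intCD8+ replicate 2 alone, the array with the highest actin ratio. Its change in CD4intCD8+ against DP was -0.90 ± 0.43 (adjusted p = 0.213), -0.09 without that array and -1.72 without CD4intCD8+ replicate 1, where the remaining array alone stood for the stage (adjusted p = 0.0048). When the actin ratio entered as a covariate, both changes in CD4intCD8+ against DP turned sign, to -0.25 for 1417045_at and 0.24 for 1448560_at, and the first was 0.34 in CD8SP against DP. In CD8SP against CD4intCD8+ the 2 probes gave 0.18 ± 0.30 and 0.83 ± 0.43 (adjusted p 0.926 and 0.65, limma). The log2 values of the 2 probes correlated at -0.528 over the 6 arrays. The remaining Bid probe, 1447873_x_at, was under the filter at 7.15 to 20.3. It had 9.71 and 7.15 in DP cells, 14.7 and 20.3 in CD4intCD8+ cells and 13.7 and 19.8 in CD8SP thymocytes. Both DP arrays were lowest, as on 1417045_at. It correlated at 0.864 with that probe and at -0.571 with 1448560_at. Without the filter its changes against DP were 0.71 ± 0.32 in CD4intCD8+ and 0.66 ± 0.32 in CD8SP. Neither passed limma's test (adjusted p 0.311 and 0.303).

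Bad, Bbc3 and Pmaip1 complete the BH3-only genes. BAD is switched off by growth factor kinases that phosphorylate it. Bad probe 1416583_at had 162 and 203 in DP cells, 147 and 151 in CD4intCD8+ cells and 131 and 155 in CD8SP thymocytes, and 1416582_a_at had 166 and 187 in DP cells, 140.1 and 122 in CD4intCD8+ cells and 143 and 139 in CD8SP thymocytes. On both probes all 4 arrays of the later stages were below both DP arrays. The changes in CD8SP against DP, -0.33 ± 0.16 and -0.31 ± 0.15, did not pass limma's test (adjusted p 0.203 and 0.189). Bbc3, whose product PUMA is induced by p53 and by cytokine withdrawal, had 53.4 and 45.8 in DP cells, 45.8 and 29.4 in CD4intCD8+ cells and 58.0 and 40.2 in CD8SP thymocytes. Its stages overlapped, with a change of -0.03 ± 0.25 in CD8SP against DP (adjusted p = 0.955, limma; 95% interval -0.60 to 0.54). Pmaip1 encodes NOXA, which binds MCL1, and its probe 1418203_at had 13.4 and 14.5 in DP cells, 22.3 and 33.8 in CD4intCD8+ cells and 29.2 and 37.5 in CD8SP thymocytes. Both DP arrays were lowest, and in the fit without the filter CD8SP exceeded DP by 0.98 ± 0.28 (adjusted p = 0.0661, limma), at intensities where the added 5.84 shrinks the change.

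**Figure D2:**
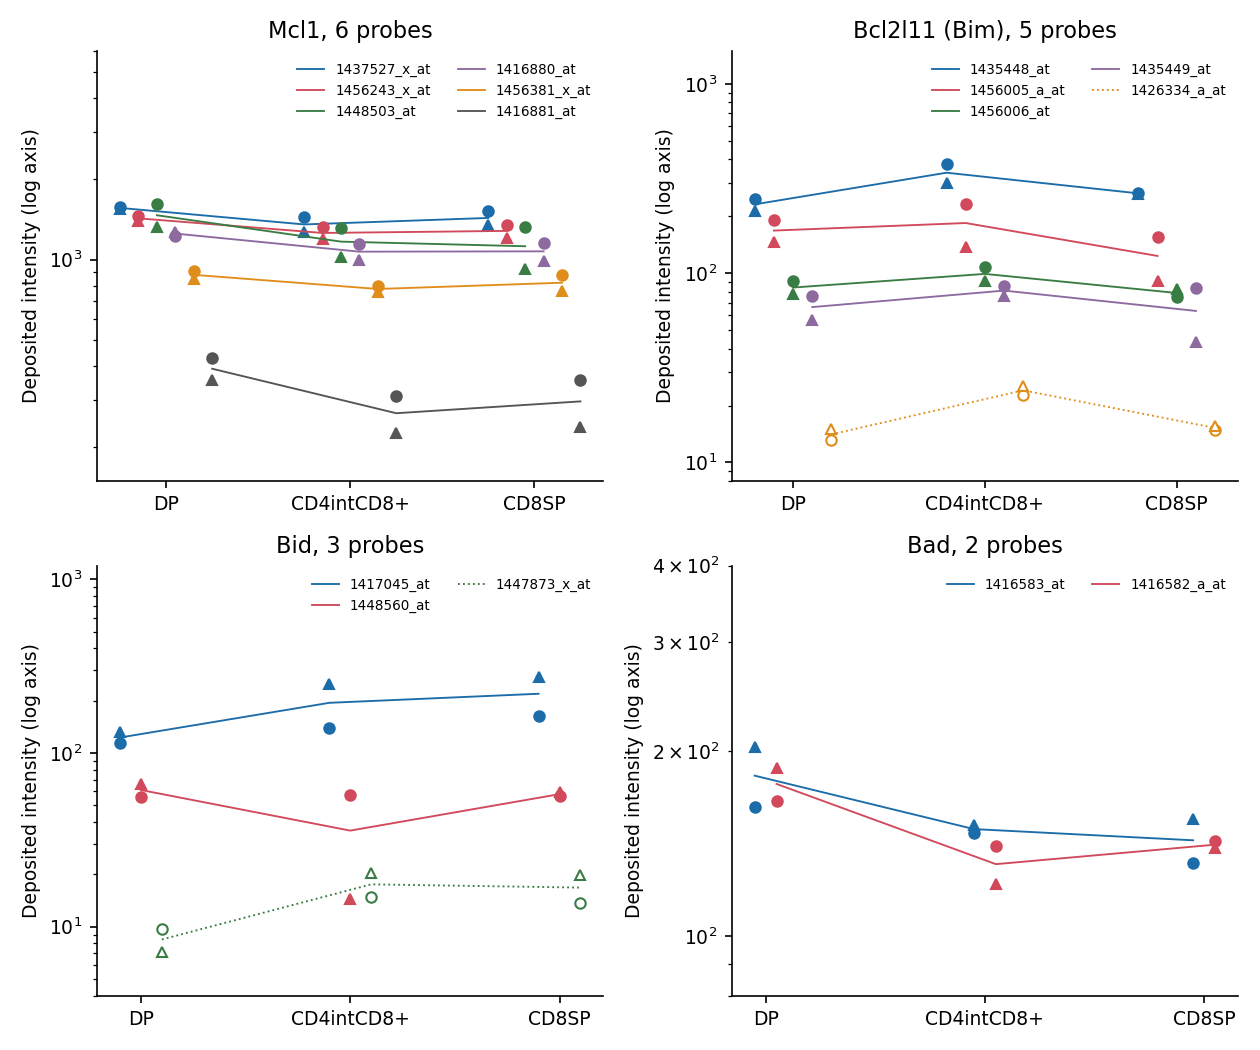
Intensity (log scale) of each probe of Mcl1, Bcl2l11, Bid and Bad on each array, by stage from DP to CD8SP. Circles are replicate 1, triangles replicate 2, and lines join stage means. Open symbols with dotted lines are probes under the filter. Bcl2l11 probe 1435448_at is highest in CD4intCD8+ (380.0 and 300.0), and Bid probe 1448560_at is low on 1 array, at 14.5.

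Counted over the 22 tested probes, CD8SP against DP called 3 as higher, all of Bcl2, and 1 as lower, of Bcl2l1. This was 18.2% of these probes, against 16.8% of the 17473 probes tested in the table (9.27% higher and 7.56% lower), so the share was near that of the whole table. CD4intCD8+ against DP called 1 as higher, of Bcl2, and 1 as lower, of Bcl2l1, or 9.09%, against 9.20% of all probes tested (5.23% higher and 3.97% lower). CD8SP against CD4intCD8+ called 0, against 0.0916% of all probes tested, where 16 were called (0.0687% higher and 0.0229% lower). In that comparison 4 of the 22 probes, all of Bcl2, had an unadjusted limma p under 0.05, as had 1471 of the 17473 probes tested. CD4intCD8+ against the mean of DP and CD8SP called 0 of these probes and 0.00% of all probes, with 1966 of all probes at an unadjusted p under 0.05. Median changes of the 22 probes were -0.09 in CD8SP against DP, -0.13 in CD4intCD8+ against DP and 0.08 in CD8SP against CD4intCD8+, while those of all tested probes were within 0.01 of 0. With the replicate number as a block the counts were 4 higher and 4 lower in CD8SP against DP, and 4 higher and 3 lower in CD4intCD8+ against DP, when 4828 and 3668 of all probes were called. With the actin ratio as a covariate the changes of Bcl2 1457687_at and Bcl2l1 1420888_at in CD8SP against DP were 1.25 and -1.99, and both still passed limma's test (adjusted p 0.000244 and 0.000134). The comparisons share arrays, so their counts are not independent of each other. In bulk populations, fewer cells that make a messenger RNA and less of it per cell cannot be told apart.

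Arrays of CD8SP and DP did not overlap for 13 of the 22 probes, 7 higher and 6 lower, and 60.5% of all tested probes did not overlap in that comparison (30.5% higher and 30.0% lower). In CD4intCD8+ against DP, 6 were higher and 10 lower without overlap, against 57.5% of all tested probes (29.5% higher and 28.0% lower). In CD8SP against CD4intCD8+, the 5 Bcl2 probes were higher and Bcl2l11 probes 1435448_at and 1456006_at lower without overlap, against 37.7% of all tested probes (18.6% higher and 19.0% lower). Changes within each replicate number do not mix arrays of different numbers. The called probes of Bcl2 and Bcl2l1 did not overlap where they were called. Their changes therefore had to have the same sign in replicate 1 and in replicate 2, which adds no support. For Bcl2l1 1420888_at these changes were -1.94 and -1.67 in CD8SP against DP and -1.42 and -1.50 in CD4intCD8+ against DP.

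**Figure D3:**
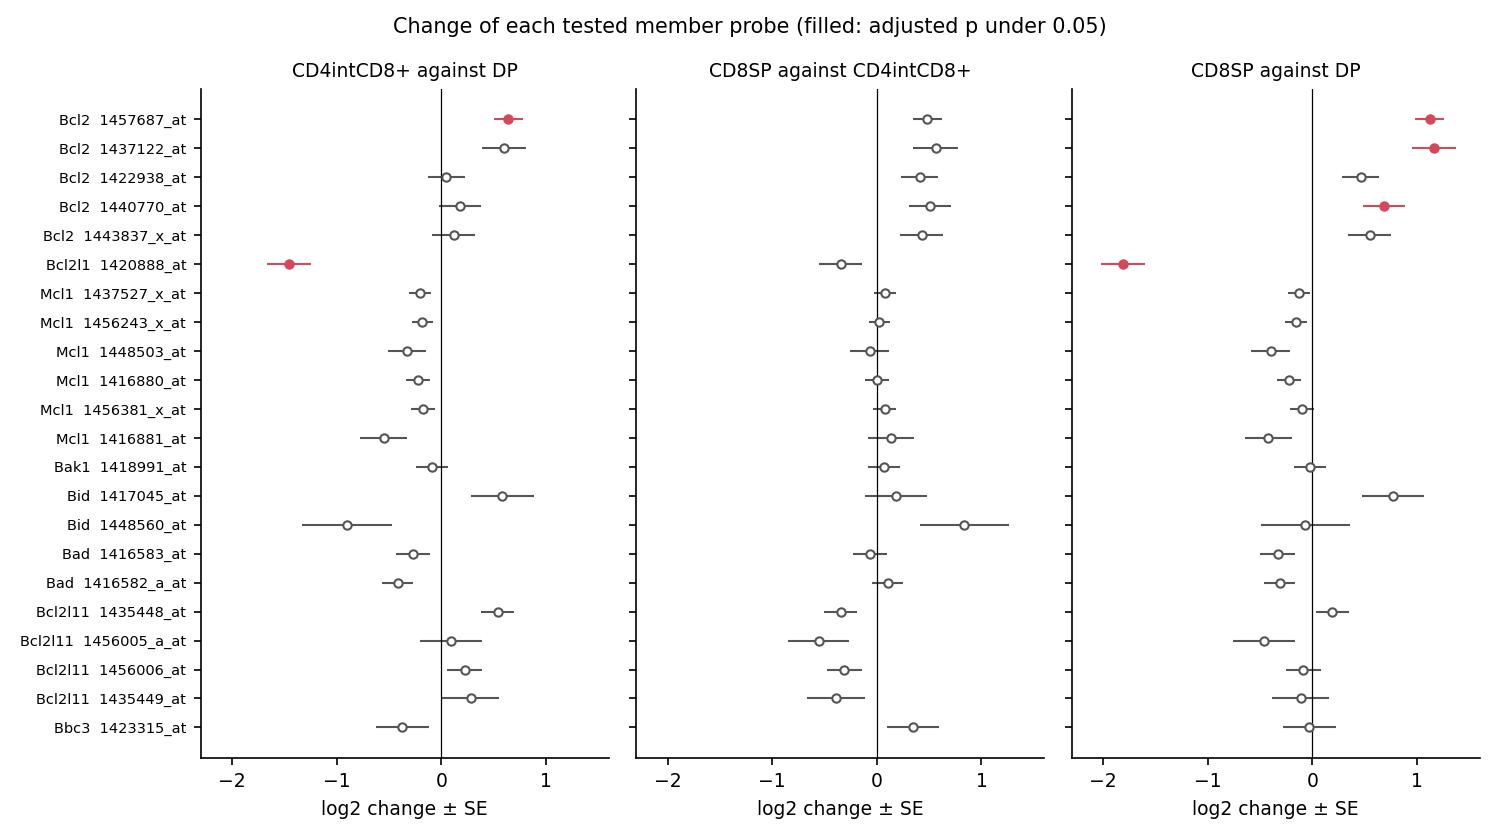
Change on the log2 scale (points) with its standard error (bars) for each tested probe in the 3 comparisons of stages; filled points passed limma's adjusted p of 0.05. In CD8SP against DP the filled points are 3 Bcl2 probes, at 0.69 to 1.16, and Bcl2l1 at -1.81.

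**Figure D4:**
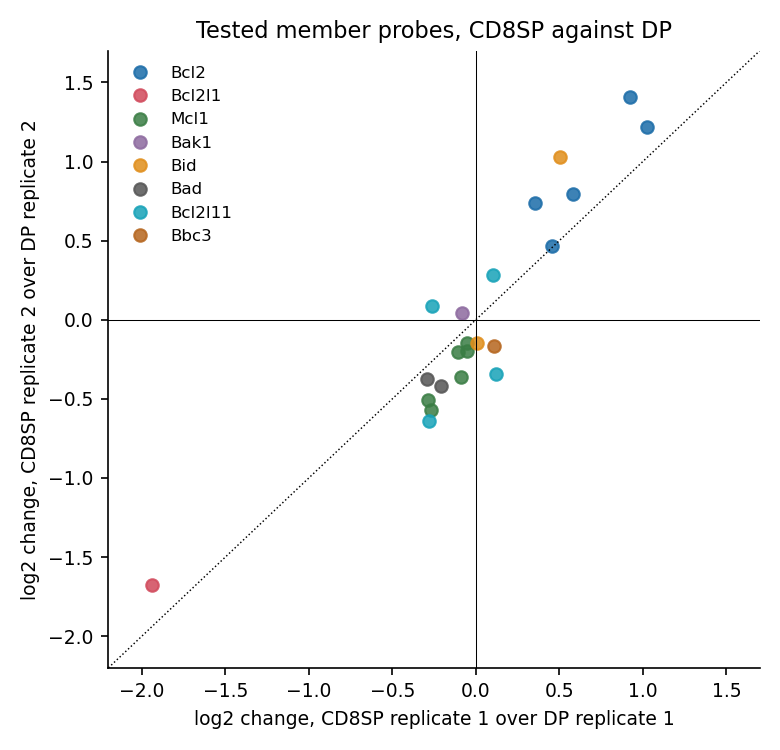
Change in CD8SP against DP within replicate 1 (horizontal, log2) and within replicate 2 (vertical, log2) for each tested probe, with a line of equality. Bcl2 1457687_at lies at 1.02 and 1.22 and Bcl2l1 1420888_at at -1.94 and -1.67.

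Genes that act with the family were followed in 7 lists of 77 genes, of which 61 genes had tested probes, 140 in all. CD8SP against DP called 17 of these probes as higher and 15 as lower (22.9%, against 16.8% of all tested probes), CD4intCD8+ against DP called 9 and 7 (11.4%, against 9.20%), and CD8SP against CD4intCD8+ called 0 in either direction. Without each array in turn, 15 of the 32 calls in CD8SP against DP and 5 of the 16 in CD4intCD8+ against DP held throughout. Among the other survival members, 1 gene, Bcl2l2, was tested. Its probe 1430454_x_at had 27.1 and 28.9 in DP cells, 50.9 and 64.5 in CD4intCD8+ cells and 52.3 and 64.6 in CD8SP thymocytes, with both later stages above DP. Both DP values lay under the filter intensity of 29.9, so this probe passed the filter only through the later stages, where it was high. Bcl2l2 rose by 0.92 ± 0.20 in CD8SP against DP (adjusted p = 0.0157, limma) on 1 of its 4 probes, and the call was lost without either DP array or CD8SP replicate 2 (adjusted p up to 0.107). The list of other pore-forming, BH3 and BNIP members had 24 tested probes, of which 1, of Bnip2, fell in CD8SP against DP (-0.59 ± 0.13, adjusted p = 0.0183, limma). That call too was lost without either DP array or CD8SP replicate 2.

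Downstream of the mitochondria, the apoptosome and caspase list had 14 tested probes, with 5 higher and 1 lower in CD8SP against DP. Over all tested probes, 9.27% were higher and 7.56% lower in that comparison, which also applies to the counts that follow. Cycs, cytochrome c, rose on 3 of 3 probes, the largest by 0.61 ± 0.15 (adjusted p = 0.0267, limma). Each of these 3 calls was lost without either DP array or CD8SP replicate 2. Endog, a mitochondrial nuclease, rose on 2 of 2 probes, the larger by 1.12 ± 0.17 (adjusted p = 0.00323), which held without each array in turn, while the smaller was lost without DP replicate 1 or either CD8SP array. Casp6, an executioner caspase, fell by 0.72 ± 0.15 (adjusted p = 0.0123), and this was lost without DP replicate 2 or CD8SP replicate 2. None of the 9 tested probes of caspase inhibitors and their antagonists passed. Of the 11 probes of the death receptor route to BID, 3 fell in CD8SP against DP and 0 rose. Fas, the death receptor, had 291 and 309.7 in DP cells, 185 and 163 in CD4intCD8+ cells and 116 and 85.4 in CD8SP thymocytes, in 3 levels without overlap. Fas fell by 1.54 ± 0.17 in CD8SP against DP (adjusted p = 0.000744, limma). Cflar, which encodes the caspase-8 inhibitor FLIP, fell on 2 of 5 probes, the larger by 0.70 ± 0.19 (adjusted p = 0.0407), and both calls were lost when any DP or CD8SP array was left out.

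Regulators of MCL1, BIM and BAD had 55 tested probes, with 3 higher and 3 lower in CD8SP against DP, where 9.27% of all tested probes were higher and 7.56% lower. Pim2, a kinase that phosphorylates BAD, had 61.4 and 55.4 in DP cells, 174 and 142 in CD4intCD8+ cells and 267 and 264 in CD8SP thymocytes. Pim2 was called in CD4intCD8+ against DP (1.34 ± 0.16, adjusted p = 0.00364, limma) and in CD8SP against DP (2.08 ± 0.16, adjusted p = 0.000131), in 3 levels without overlap. Ppp3ca, a catalytic subunit of calcineurin, which dephosphorylates BAD, rose by 0.98 ± 0.17 in CD8SP against DP on 1438478_a_at (adjusted p = 0.00619) and passed on 2 of 3 probes. Gsk3b, a kinase that marks MCL1 for destruction, fell by 0.93 ± 0.14 on 1451020_at (adjusted p = 0.00331) and passed on 2 of 5 probes. These larger calls of Ppp3ca and Gsk3b held without each array in turn, and their second calls were lost without DP replicate 2 or either CD8SP array, that of Gsk3b without DP replicate 1 as well. Pim1 fell on 1435458_at (-0.63 ± 0.16, adjusted p = 0.0263), a call lost without DP replicate 1 or either CD8SP array.

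Transcription factors known to act on Bcl2 family genes had 23 tested probes, with 8 higher and 7 lower in CD8SP against DP and a median change of -0.43. The shares of all tested probes were 9.27% higher and 7.56% lower. Myb, a factor of immature thymocytes, fell on 3 of 3 probes, with changes of -1.97 to -1.62 in CD8SP against DP, and Stat5b, which carries cytokine signals to Bcl2, fell on 2 of 2, with changes of -1.14 and -0.86. Myc had 43.8 and 27.8 in DP cells, 95.4 and 116 in CD4intCD8+ cells and 201 and 171 in CD8SP thymocytes, in 3 levels without overlap. It rose by 2.23 ± 0.21 in CD8SP against DP (adjusted p = 0.000378, limma). Nr4a3, a nuclear receptor that responds to antigen receptor stimulation, rose on 2 of 2 probes in both comparisons with DP. On 1438796_at it rose by 2.39 ± 0.15 in CD4intCD8+ cells and 2.35 ± 0.15 in CD8SP thymocytes (adjusted p 0.000774 and 5.51e-05, limma). The other Nr4a3 probe, 1421080_at, had 21.0 and 16.1 in DP cells, under the filter intensity of 29.9. It passed the filter only through the later stages, at 38.9 to 55.5. The calls of Myb, Stat5b and Myc in CD8SP against DP, and those of Nr4a3 on 1438796_at, held without each array in turn, and those of Nr4a3 on its other probe were lost without either DP array, without CD4intCD8+ replicate 2 in CD4intCD8+ against DP, and without either CD8SP array in CD8SP against DP.

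Probes most like the leading ones in pattern were ranked by Pearson's r of log2 values over the 6 arrays, which share stage and replicate number, so that r mainly orders probes that follow the stages. For Bcl2 1457687_at these were Sorl1 (r = 0.997), Zfp13 (0.996), Clcf1 (0.996), Rpl22 (0.996) and Smad7 (0.995), and 385 tested probes had r over 0.95. For Bcl2l1 1420888_at they were Ccr2, Patz1, Plin2 and Tor2a (0.997 each) and Notch3 (0.996), and 349 probes had r over 0.95.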

How the data were processed

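The deposited table holds 1 linear intensity for each of 45101 probes on 6 arrays. The software and scaling by which the authors made these intensities are not given in the sources used here. Values below 0 show that a background had been subtracted, and array medians show a common scale. Depth does not apply to arrays, and their number limits the precision. Negative values were raised to 0, and analysis used log2(intensity + 5.84), the added value being the 10th percentile of the positive intensities. Changes of dim probes are understated on this scale.

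Of the 34945 probes with a single symbol, 17473 with a mean at or above the median were fitted together with limma 3.58.1 in R 4.3.3 (lmFit, eBayes with an intensity trend), with a term for stage and no other, on 3 residual degrees of freedom and 5.87 from the prior. Probes of a gene were not averaged. A further 932 probes carry several symbols and 9160 carry none, and these did not enter the fit. The fit was tested on simulated data. Alternatives covered the added value, filter, replicate block, trend, quantile normalization, 1 probe per gene, the actin ratio as a covariate, and leaving out each array. Every probe of the family was shown. Of the other lists, up to 4 genes with the largest change among called ones were named, and for likeness the 5 nearest genes. Members and lists were chosen with earlier results of these data known.

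Replicate numbers come from the sample titles. Deviations from stage means correlated between arrays of the same number, at 0.28 for CD4intCD8+ with DP, 0.22 for CD8SP with DP and 0.28 for CD8SP with CD4intCD8+. All lie over 0.1, so the arrays were also fitted as paired by number, with the replicate number as a block. The main results and counts come from the fit without that block. Values with the block stand beside them where a call changes. Promoter windows come from RefSeq (GRCm38.p6), and the 15 windows taken cover 9 of the listed genes. Windows of Pmaip1 were not analysed here.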

Additional observations from a re-analysis of the deposited data

How the results depend on the processing

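The Bcl2 probe 1457687_at and the Bcl2l1 probe 1420888_at were called in CD8SP against DP under every alternative tried. In CD4intCD8+ against DP, the replicate block called 3668 of all probes and 7 family probes, the fit without an intensity trend called 950 and 1, and the actin ratio as a covariate called 425 of all probes. In CD8SP against CD4intCD8+ the block called 269, no trend 7 and the actin covariate 33 of all probes. In CD8SP against DP the block called 4828 of all probes and 8 family probes, and 1 probe per gene called 2 of 8 family genes and 2167 of all 11049 genes. For CD4intCD8+ against DP and CD8SP averaged, the block called 210, 1 probe per gene 1 and the actin covariate 9. Leaving out 1 array gave 131 to 1783 probes (0 to 3 of the family) in CD4intCD8+ against DP, 7 to 64 (0 to 1) in CD8SP against CD4intCD8+, 1317 to 3134 (2 to 5) in CD8SP against DP and 0 to 16 (0 to 1) for the middle stage against the others. Among the family changes in CD4intCD8+ against DP that were called under some setting, 3 turned sign with the actin covariate. They became 0.11 for Mcl1 1448503_at, -0.25 for Bid 1417045_at and 0.24 for Bid 1448560_at, and the cause was not tested. The Bcl2 probe 1440770_at in CD8SP against DP was also lost without the filter (adjusted p = 0.0855, limma), without the trend (0.0527) and after quantile normalization (0.051), and 1457687_at in CD4intCD8+ against DP without the trend (0.0639). Probe 1437122_at in CD8SP against DP was lost without DP replicate 2 (0.93, adjusted p = 0.0616). Without CD4intCD8+ replicate 1, Bid 1448560_at was called in CD8SP against CD4intCD8+ (1.65, adjusted p = 0.027). The replicate block changed no family call beyond those given with the results. Of 88 family comparisons, 70 were called under no setting, and 30 of these changed sign under some setting, 17 of them under the actin covariate. With 2 arrays a stage, differences near 0.18, the median standard error, lie within the error, and dim probes near the added value have no usable fold change.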
